A study of Mus musculus with 12 samples.

Results

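The transforming growth factor beta (TGF-beta) family was examined as 10 named genes: the ligands Tgfb1, Tgfb2, Tgfb3, Inhbb, Gdf15 and Mstn, the latent TGF-beta binding protein gene Ltbp2, the receptors Tgfbr1 and Tgfbr2, and the inhibitory SMAD Smad7. The rule took each row of the deposited table whose gene name is one of these, which gave 9 of the 13552 genes in the table; Mstn was not analysed here. All 9 reached at least 1 RPKM in 3 or more mice and entered the test, among 11240 genes.

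RNA was measured in whole hearts of 12 male mice on the C57BL/6J background, taken 9 h after surgery at 8 to 10 weeks of age. Transverse aortic constriction (TAC) ties the aorta over a needle and so loads the left ventricle with pressure, and sham mice had the operation without the tie. There were 4 groups of 3 mice: wild type (WT) mice after sham or TAC surgery, and homozygous Bcl-xL-S14A knock-in (KI) mice after either surgery. KI mice carry on both alleles of Bcl2l1, in every cell, a Bcl-xL protein with alanine in place of serine 14, which cannot be phosphorylated there. The knock-in was made in ES cells and its neo cassette was removed by a cross to CMV-Cre mice, whereas WT males were bought, so genotype and colony cannot be told apart. The comparisons ask how acute pressure overload changes the family in each genotype and whether the genotype changes that response.

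TGF-beta ligands are made as latent precursors that are stored in the extracellular matrix with binding proteins and released by proteases, integrins or thrombospondin. The active dimer joins a type 2 and a type 1 receptor kinase, which phosphorylate SMAD proteins that enter the nucleus and switch on matrix and feedback genes. In the heart the family is best known for driving fibroblasts to make matrix, and activins are ligands of related receptor kinases. Values are in RPKM (reads on a gene per kilobase of its exons, relative to all reads on genes in that heart), and a change is a difference of mean log2(RPKM + 1), a scale that understates the change of low genes. "Past the threshold" means a Benjamini-Hochberg adjusted p under 0.05 in a limma model of all 4 groups, adjusted over the 11240 genes, and p-values below come from that model unless another setting or a left-out mouse is named. RNA of a whole heart cannot tell more cells of a type from more RNA per cell.

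Because 4 members rose past the threshold in WT hearts (Tgfb2, Gdf15, Ltbp2 and Tgfbr1), the bases before their start sites are shown. They run from 250 to 51 bases before the RefSeq start, 5′ to 3′ on the strand of the gene, in build GRCm38.p6. Capitals mark CAGAC, the SMAD binding element, or its reverse complement GTCTG. The stretches are chr1:186706040-186706239 (minus strand) for Tgfb2, chr8:70632507-70632706 (minus) for Gdf15, chr12:84876542-84876741 (minus) for Ltbp2 and chr4:47352972-47353171 (plus) for Tgfbr1.
Tgfb2: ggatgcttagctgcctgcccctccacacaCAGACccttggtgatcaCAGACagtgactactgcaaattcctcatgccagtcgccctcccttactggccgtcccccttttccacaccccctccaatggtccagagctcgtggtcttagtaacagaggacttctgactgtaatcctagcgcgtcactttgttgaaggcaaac
Gdf15: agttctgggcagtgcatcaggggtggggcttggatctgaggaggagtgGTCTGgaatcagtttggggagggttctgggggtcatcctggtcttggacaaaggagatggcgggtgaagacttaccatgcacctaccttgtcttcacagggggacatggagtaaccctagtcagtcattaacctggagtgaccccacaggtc
Ltbp2: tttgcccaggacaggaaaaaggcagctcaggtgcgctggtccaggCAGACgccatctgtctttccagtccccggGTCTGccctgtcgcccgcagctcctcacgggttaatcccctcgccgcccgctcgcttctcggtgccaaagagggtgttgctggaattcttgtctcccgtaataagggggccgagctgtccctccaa
Tgfbr1: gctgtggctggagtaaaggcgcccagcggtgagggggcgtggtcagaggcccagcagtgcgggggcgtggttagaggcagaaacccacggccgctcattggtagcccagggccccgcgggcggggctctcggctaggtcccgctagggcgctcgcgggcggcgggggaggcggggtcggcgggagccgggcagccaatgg
The element was present 2 times in the Tgfb2 stretch, once in that of Gdf15, 2 times in that of Ltbp2 and not in that of Tgfbr1. It is short, and 49.6% of all 32851 RefSeq promoter windows (250 bases before to 50 after a start, both strands) held it. Of the 10 members, 8 had a RefSeq window, and among those not shown Tgfbr2 held the element once and Mstn 2 times, while Tgfb1 and Inhbb did not hold it. Gdf15 and Tgfbr1 each had a second RefSeq window, at another start, which held it once. The palindrome GTCTAGAC (0.213% of all windows) and TGATGCAA (0.895%), the element bound by ATF4 and C/EBP factors, were in no member's window. A match is a description of these letters and does not show a bound site.

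Libraries held 23650200 to 32455150 reads on genes, and Pearson's r between mice of a group over genes, which are not independent replicates, was 0.946 to 0.991. Heart muscle markers (Myh6, Actc1, Tnnt2, Tnni3 and Ryr2) summed to 11300 to 21600 RPKM per mouse. The codon change is not visible in gene values, and Bcl2l1 itself was 12.2 ± 4.52 RPKM (SD, n = 3) in WT sham, 10.4 ± 5.88 in WT TAC, 13.9 ± 6.47 in KI sham and 32.4 ± 6.89 in KI TAC hearts. It rose in KI TAC over KI sham by 1.26 on the log2 scale (adjusted p = 0.0354) and was higher in KI TAC than in WT TAC by 1.64 (adjusted p = 0.0231), with a WT change of −0.26 (adjusted p = 0.706). WT TAC mouse 10 stood apart in its fibroblast markers (Pdgfra, Col1a2, Lum, Tcf21 and Dpt), which summed to 159 RPKM there and to 46.9 to 95.7 RPKM in the other 11 hearts. The sum of 6 glucocorticoid-responsive genes (Fkbp5, Tsc22d3, Zbtb16, Per1, Sgk1 and Pdk4) was 438 RPKM in WT TAC mouse 9 and 77.5 to 177 RPKM in the other WT hearts. Pdk4 made up 344 RPKM of it, Fkbp5 (9.29 RPKM) was also above the other WT hearts, and the other 4 genes lay within their range. In KI hearts this sum was 212 to 254 RPKM after sham and 482 to 1180 RPKM after TAC, of which Pdk4 made up 70.3% to 87.2% after TAC.

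In WT hearts, TAC raised 4 of the 9 members and lowered none: the ligands Tgfb2 and Gdf15, the matrix protein Ltbp2 and the type 1 receptor Tgfbr1. Over all genes tested, 6.96% were higher and 4.6% lower past the threshold in this comparison. The median change of the 9 members was 0.74 on the log2 scale, beside 0.04 for all genes, and 5 of the 9 were higher in every WT TAC mouse than in every WT sham mouse, which held for 20% of all genes.
In KI hearts, Tgfb2 and Tgfbr1 rose and no member fell, where 8.57% of all genes were higher and 14.7% lower. The median change was 0.52, beside −0.10 for all genes, and again 5 of the 9 members did not overlap between the groups, with all KI TAC mice higher, against 13.6% of all genes. Between the TAC groups, Ltbp2 alone passed the threshold, lower in KI, where 2.92% of all genes were higher and 8.13% lower. No member differed between the sham groups (changes of −0.10 to 0.19, all adjusted p = 1), as for nearly all genes (0.0178% past the threshold). At an unadjusted p under 0.05 there were 7 members in WT (27.9% of all genes), 4 in KI (36.8%), 3 between the TAC groups (30.3%) and 0 between the sham groups (0.329%).

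**Figure D1:**
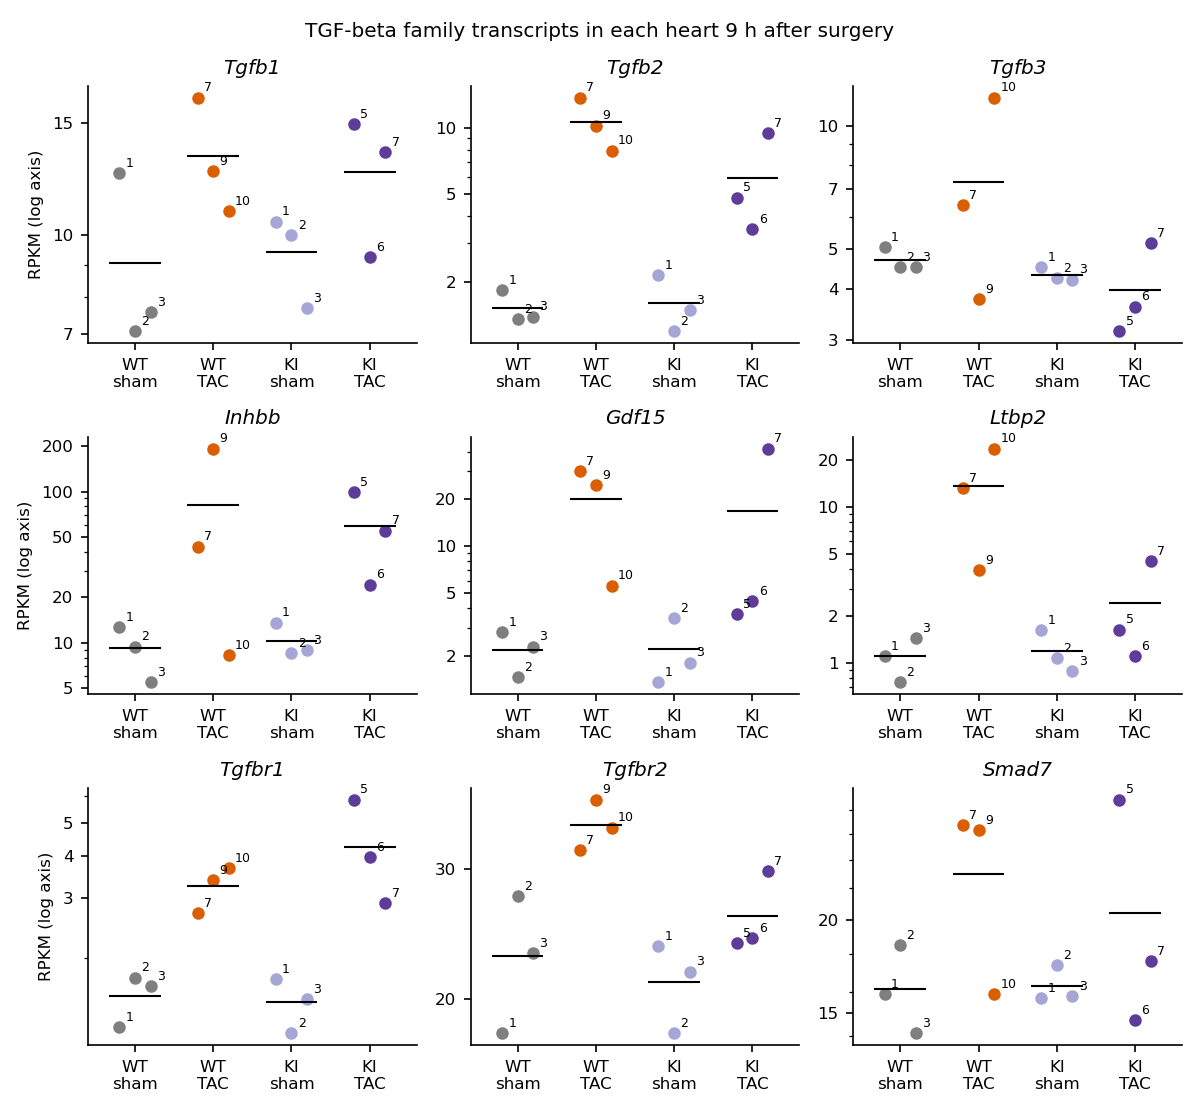
RPKM of the 9 members on log axes in each of the 12 hearts, by group (3 mice each); each point is 1 mouse with its number and the bar is the group mean. All 3 WT TAC mice lie above the WT sham mice for Tgfb2, Gdf15, Ltbp2, Tgfbr1 and Tgfbr2, and WT TAC mouse 10 lies at the sham level for Inhbb (8.31 RPKM) and highest for Ltbp2 (23.5 RPKM) and Tgfb3 (11.7 RPKM).

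Among the 3 TGF-beta ligands, Tgfb2 was the one that passed the threshold. Tgfb2 (ENSMUSG00000039239, chromosome 1, 186622792 to 186705989, minus strand, GRCm38) was 1.84, 1.35 and 1.39 RPKM in WT sham mice 1, 2 and 3, and 13.8, 10.3 and 7.93 RPKM in WT TAC mice 7, 9 and 10. It was 2.15, 1.19 and 1.49 RPKM in KI sham mice 1, 2 and 3, and 4.84, 3.47 and 9.54 RPKM in KI TAC mice 5, 6 and 7. Every TAC heart was above every sham heart of either genotype, and KI TAC mouse 7 reached into the WT TAC range. The rise was 2.18 (standard error 0.27, adjusted p = 0.000374) in WT and 1.33 (standard error 0.27, adjusted p = 0.00383) in KI hearts, from group means of 1.53 ± 0.27 to 10.7 ± 2.96 RPKM and of 1.61 ± 0.494 to 5.95 ± 3.18 RPKM (SD, n = 3 each). Both rises stayed past the threshold under all 12 alternatives tried.
The KI value of Tgfb2 was lower between the TAC groups by −0.81 (95% interval −1.40 to −0.22), which did not pass the threshold (unadjusted p = 0.0104, adjusted p = 0.0694). The difference of the responses was −0.85 (95% interval −1.68 to −0.02, adjusted p = 0.33). Without KI TAC mouse 7 the difference between the TAC groups was −1.16 and passed the threshold (adjusted p = 0.00818).

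Tgfb1, the most abundant of the 3 ligands (ENSMUSG00000002603, chromosome 7, 25687002 to 25705077, plus strand), was 12.5, 7.08 and 7.59 RPKM in WT sham and 16.4, 12.6 and 10.9 RPKM in WT TAC mice. KI mice had 10.5, 10 and 7.7 RPKM after sham and 14.9, 9.25 and 13.5 RPKM after TAC. The groups overlapped in both genotypes, and the changes of 0.53 in WT (95% interval 0.02 to 1.04, adjusted p = 0.164) and 0.37 in KI (−0.14 to 0.88, adjusted p = 0.277) did not pass the threshold. Tgfb3 (ENSMUSG00000021253, chromosome 12, 86056745 to 86079041, minus strand) was 5.06, 4.51 and 4.52 RPKM in WT sham and 6.41, 3.77 and 11.7 RPKM in WT TAC mice. Mouse 9 of WT TAC lay below the sham mice and mouse 10 at more than any other heart, so the change of 0.43 was not past the threshold (adjusted p = 0.323). In KI mice Tgfb3 was 4.52, 4.25 and 4.21 RPKM after sham and 3.15, 3.62 and 5.17 RPKM after TAC, a change of −0.12 (adjusted p = 0.785) whose sign turned with median-ratio scaling. Its difference between the TAC groups was −0.64 (95% interval −1.22 to −0.06, unadjusted p = 0.0325, adjusted p = 0.129). Without WT TAC mouse 9 it was −0.98 and past the threshold (adjusted p = 0.0147).

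Inhbb and Gdf15 were the members that spread most among hearts of one TAC group. Inhbb (ENSMUSG00000037035, chromosome 1, 119415465 to 119422248, minus strand) encodes the beta B subunit of activins and inhibins. It was 12.7, 9.45 and 5.49 RPKM in WT sham and 43.2, 192 and 8.31 RPKM in WT TAC mice, so that mice 7 and 9 were above every sham heart and mouse 10 was within the sham range. KI mice had 13.6, 8.53 and 8.94 RPKM after sham and 99.1, 24.3 and 55.1 RPKM after TAC, with no overlap. The changes of 2.14 in WT (95% interval 0.45 to 3.82, adjusted p = 0.0939) and 2.23 in KI (0.54 to 3.91, adjusted p = 0.0545) fell short of the threshold. Without WT TAC mouse 10 the WT change was 3.24 and past it (adjusted p = 0.00425), and without WT TAC mouse 9 it was the lowest of the alternatives, 1.05. The KI change passed it in 3 of 12 alternatives, among them limma-voom on the recovered reads (adjusted p = 0.0482) and the fit without KI TAC mouse 6 (adjusted p = 0.0447). Its adjusted p over all alternatives was 0.00292 to 0.181. The difference between the TAC groups was 0.28 with a 95% interval of −1.40 to 1.96, and its sign turned without WT TAC mouse 10 (−0.82).

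Gdf15 (ENSMUSG00000038508, chromosome 8, 70629393 to 70632456, minus strand) encodes a secreted stress cytokine that signals through GFRAL in the brain stem. It was 2.81, 1.46 and 2.28 RPKM in WT sham and 30, 24.3 and 5.58 RPKM in WT TAC mice. In KI mice it was 1.35, 3.47 and 1.8 RPKM after sham and 3.69, 4.47 and 41.7 RPKM after TAC. No TAC heart overlapped the sham hearts of its genotype, but WT TAC mouse 10 and KI TAC mice 5 and 6 stayed within a few RPKM of them, while KI TAC mouse 7 had the highest value of all. Counts behind these values were low, from 61 reads upwards. Gdf15 rose in WT by 2.47 (standard error 0.70, adjusted p = 0.037), a call that was lost in 6 of 12 alternatives: with limma-voom (adjusted p = 0.0523) and without WT sham mouse 1, 2 or 3 or WT TAC mouse 7 or 9 (adjusted p over all alternatives 0.0101 to 0.146). In KI the change was 1.74 (95% interval 0.23 to 3.25, adjusted p = 0.0889). The difference between the TAC groups, −0.75 (−2.26 to 0.76, adjusted p = 0.498), moved with 1 heart: without KI TAC mouse 7 it was −1.77 (adjusted p = 0.0364).

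Ltbp2, a matrix protein of the fibrillin and latent TGF-beta binding protein family, had the largest change of any member in WT hearts and was the member past the threshold between the TAC groups, whose mice overlapped. Ltbp2 (ENSMUSG00000002020, chromosome 12, 84783212 to 84876532, minus strand) was 1.11, 0.754 and 1.45 RPKM in WT sham and 13.2, 3.95 and 23.5 RPKM in WT TAC mice. In KI mice it was 1.63, 1.08 and 0.889 RPKM after sham and 1.64, 1.11 and 4.5 RPKM after TAC. All WT TAC mice were above all WT sham mice, whereas KI TAC mice 5 and 6 lay in or at the edge of the KI sham range. WT TAC mouse 9 and KI TAC mouse 7 were close to each other, so the TAC groups overlapped. Means were 1.10 ± 0.348, 13.5 ± 9.76, 1.2 ± 0.387 and 2.42 ± 1.83 RPKM (SD, n = 3) in these groups, in the same order.
The rise in WT was 2.52 (standard error 0.46, adjusted p = 0.00381) and was kept under all 12 alternatives, while the KI change was 0.52 (95% interval −0.46 to 1.5, adjusted p = 0.436). Ltbp2 was lower in KI between the TAC groups by −1.94 (standard error 0.46, 95% interval −2.92 to −0.96, adjusted p = 0.0209). That call was lost in 5 of 12 alternatives, namely in the fit of the 2 groups alone (adjusted p = 0.0847) and on leaving out mouse 7 or 10 of WT TAC or mouse 5 or 6 of KI TAC (adjusted p over all alternatives 0.000967 to 0.0998). The test of the difference between the responses gave −2.0 (95% interval −3.39 to −0.62, unadjusted p = 0.00789) and did not pass the threshold over all genes (adjusted p = 0.203), and without WT TAC mouse 9 it did (−2.64, adjusted p = 0.0156). The order of the WT TAC mice in Ltbp2 (mouse 10, then 7, then 9) was also their order in the summed fibroblast markers (159, 76.4 and 46.9 RPKM). In KI TAC mice 5, 6 and 7 that sum was 52, 64.7 and 71.4 RPKM. None of the 5 fibroblast markers rose past the threshold in WT hearts (6.96% of all genes did) or differed between the TAC groups (2.92% higher and 8.13% lower). In KI hearts 1 fell, as did 14.7% of all genes, and the part of these markers in the result was not tested.

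Of the receptors, Tgfbr1, the type 1 receptor kinase, rose in both genotypes. Tgfbr1 (ENSMUSG00000007613, chromosome 4, 47353222 to 47414931, plus strand) was 1.25, 1.75 and 1.65 RPKM in WT sham and 2.71, 3.39 and 3.68 RPKM in WT TAC mice. The KI mice had 1.73, 1.2 and 1.51 RPKM after sham and 5.86, 3.97 and 2.91 RPKM after TAC. Every TAC heart was above every sham heart, and the TAC groups overlapped. The rise was 0.74 in WT (standard error 0.19, adjusted p = 0.0242) and 1.05 in KI (standard error 0.19, adjusted p = 0.00195). The KI call was kept under all 12 alternatives. The WT call was lost in 7 of them, with quantile normalization (adjusted p = 0.0504), median-ratio scaling (adjusted p = 0.0618) and without any 1 WT sham mouse or WT TAC mouse 9 or 10 (adjusted p over all alternatives 0.0195 to 0.0865). The difference between the TAC groups was 0.27 (95% interval −0.14 to 0.68, adjusted p = 0.362).

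Tgfbr2, the type 2 receptor that binds the ligand first, was the most abundant member in sham hearts. Tgfbr2 (ENSMUSG00000032440, chromosome 9, 116084293 to 116175360, minus strand) was 18, 27.6 and 23.1 RPKM in WT sham and 31.8, 37.2 and 34.1 RPKM in WT TAC mice. In KI mice it was 23.6, 18 and 21.8 RPKM after sham and 23.8, 24.2 and 29.8 RPKM after TAC. The WT TAC mice were above all other hearts, and those of KI TAC only just above KI sham. The changes of 0.58 in WT (95% interval 0.17 to 0.99, adjusted p = 0.0627) and 0.28 in KI (−0.12 to 0.69, adjusted p = 0.298) did not pass the threshold. Tgfbr2 was, between the TAC groups, the 1 member whose KI mice all lay below the WT mice, as did 19.4% of all genes, with a difference of −0.40 (−0.81 to 0.01, adjusted p = 0.174).

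Smad7 (ENSMUSG00000025880), which is induced by TGF-beta and blocks the type 1 receptor, was 15.9, 18.5 and 14.1 RPKM in WT sham and 26.7, 26.3 and 15.9 RPKM in WT TAC mice. The KI mice had 15.7, 17.4 and 15.8 RPKM after sham and 28.9, 14.7 and 17.6 RPKM after TAC. WT TAC mice 7 and 9 and KI TAC mouse 5 were above every sham heart and the other 3 TAC hearts were within the range of the 6 sham hearts. Neither the WT change of 0.45 (95% interval −0.08 to 0.98, adjusted p = 0.248) nor the KI change of 0.25 (−0.28 to 0.78, adjusted p = 0.494) passed the threshold.

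The order of abundance of the first 6 members was the same in sham hearts of both genotypes. By mean RPKM, which is per length, WT sham hearts had Tgfbr2 (22.9 ± 4.82) and Smad7 (16.2 ± 2.2) first, then Inhbb (9.23 ± 3.63) and Tgfb1 (9.06 ± 3.01), then Tgfb3 (4.70 ± 0.313), Gdf15 (2.18 ± 0.678), Tgfbr1 (1.55 ± 0.261), Tgfb2 (1.53 ± 0.27) and Ltbp2 (1.10 ± 0.348; SD, n = 3 for each). The values of the mice overlapped between Tgfbr2 and Smad7, Inhbb and Tgfb1, Gdf15 and Tgfbr1, Tgfbr1 and Tgfb2, and Tgfb2 and Ltbp2. After TAC in WT hearts the mean of Tgfb2 (10.7 ± 2.96) lay above that of Tgfb3 (7.28 ± 4.02) and its mice overlapped those of Tgfb1 (13.3 ± 2.81). In KI TAC hearts the mean of Tgfb2 (5.95 ± 3.18) lay below that of Tgfb1 (12.5 ± 2.93), with overlapping mice (Tgfb2 was 9.54 RPKM in mouse 7 and the lowest Tgfb1 value was 9.25 RPKM), and the mean of Tgfb3 was 3.98 ± 1.05.

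**Figure D2:**
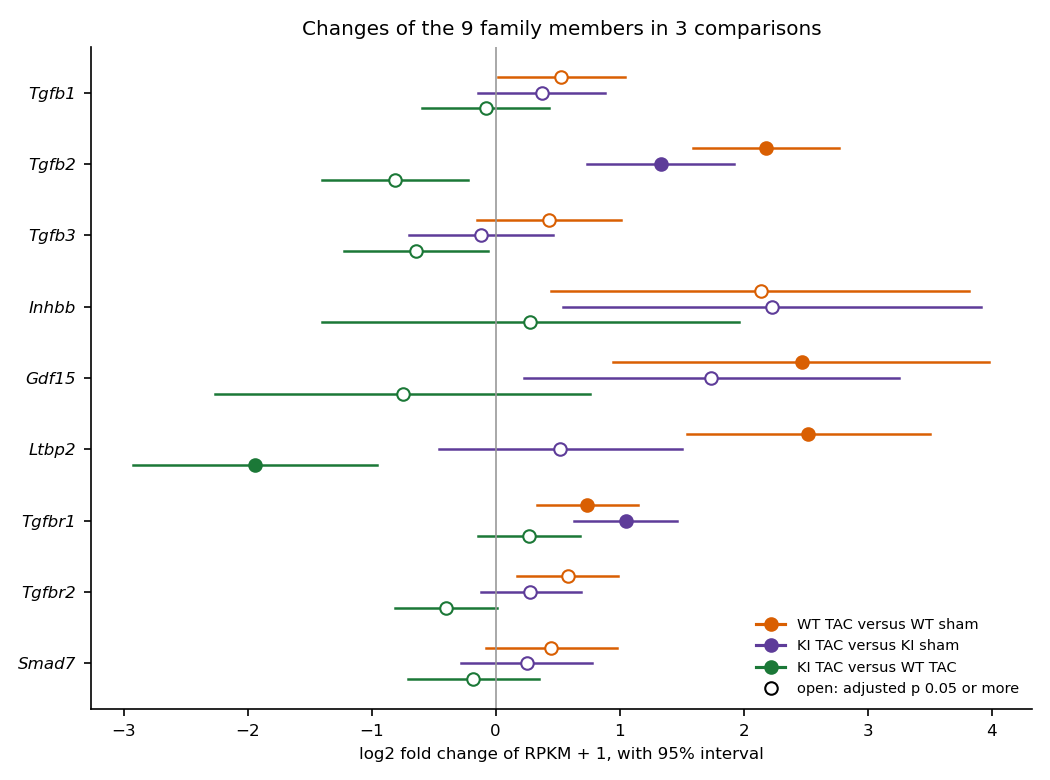
Difference of mean log2(RPKM + 1) with its 95% interval (horizontal axis) for the 9 members on TAC in WT hearts, on TAC in KI hearts and between the TAC groups (KI minus WT); filled points have an adjusted p under 0.05. Tgfb2 and Tgfbr1 are filled in both genotypes, Gdf15 and Ltbp2 in WT, and Ltbp2 (−1.94) is the only filled point between the TAC groups, while the intervals of Inhbb and Gdf15 are the widest.

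No member passed the threshold in the test of genotype by surgery, and none of the 11240 genes did (0%), although 1668 genes (14.8%) had an unadjusted p under 0.05. Among the members that number was 2, Ltbp2 and Tgfb2. The interval of the difference of responses was −2.29 to 2.47 for Inhbb and −2.86 to 1.41 for Gdf15, so with 3 mice a group a difference of several-fold either way was within error for these 2 ligands. It was narrower for Tgfb1 (−0.88 to 0.56), Tgfbr1 (−0.28 to 0.89) and Tgfbr2 (−0.88 to 0.28). Exact permutation tests are not given, since with 3 mice a side their smallest two-sided p is 0.1.

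Scaling shifted the two-way balance of all genes, which bears on members with small changes. As deposited, 60.2% of the genes past the threshold were higher after TAC in WT hearts, 36.8% after TAC in KI hearts, and 26.4% in KI when the TAC groups were compared. After quantile normalization these shares were 48.1%, 48.3% and 46%, and after median-ratio scaling 50.2%, 55% and 58.6%. The median of all genes moved by 0.128 between the TAC groups with quantile normalization, by 0.164 there and by 0.138 in KI hearts with median-ratio scaling, and the median interaction by 0.141 and 0.175. The sign of Tgfb1 between the TAC groups (−0.08 as deposited) turned under both scalings and that of Smad7 (−0.18) under median-ratio scaling; those of Tgfb2, Tgfb3, Gdf15, Ltbp2 and Tgfbr2 stayed negative under both.

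The hearts of one TAC group did not rank alike across members. Relative to the mean of the WT sham mice, Inhbb was 4.69, 20.8 and 0.902 times in WT TAC mice 7, 9 and 10, and Ltbp2 was 11.9, 3.58 and 21.3 times. Mouse 9 was thus highest for Inhbb and lowest for Ltbp2, and mouse 10 the reverse. Tgfb3 followed the order of Ltbp2 (1.36, 0.803 and 2.49 times), and Gdf15 (13.7, 11.1 and 2.56 times) that of neither. Mouse 9 was also the WT TAC heart with the highest glucocorticoid sum (3.01 times, against 0.68 and 0.533), mostly through Pdk4. Without Pdk4, a setting chosen after the data had been seen, the sum was 0.967 times in mouse 9 and 0.342 and 0.437 times in mice 7 and 10. In KI TAC mice 5, 6 and 7, Inhbb was 9.57, 2.35 and 5.32 times the KI sham mean, Gdf15 1.67, 2.03 and 18.9 times and Ltbp2 1.37, 0.925 and 3.75 times. The glucocorticoid sum was 2.93, 5.01 and 2.05 times in these mice, and without Pdk4 it was 1.46, 1.57 and 1.49 times; mouse 6 was highest either way, and the order of mice 5 and 7 changed. Of the 6 glucocorticoid-responsive genes, 3 rose and none fell in KI hearts, 1 fell in WT hearts, and 5 were higher in KI when the TAC groups were compared. Over all genes, 8.57% rose and 14.7% fell in KI, 4.6% fell in WT, and 2.92% were higher in KI between the TAC groups. Their part in any member's value was not tested.

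**Figure D3:**
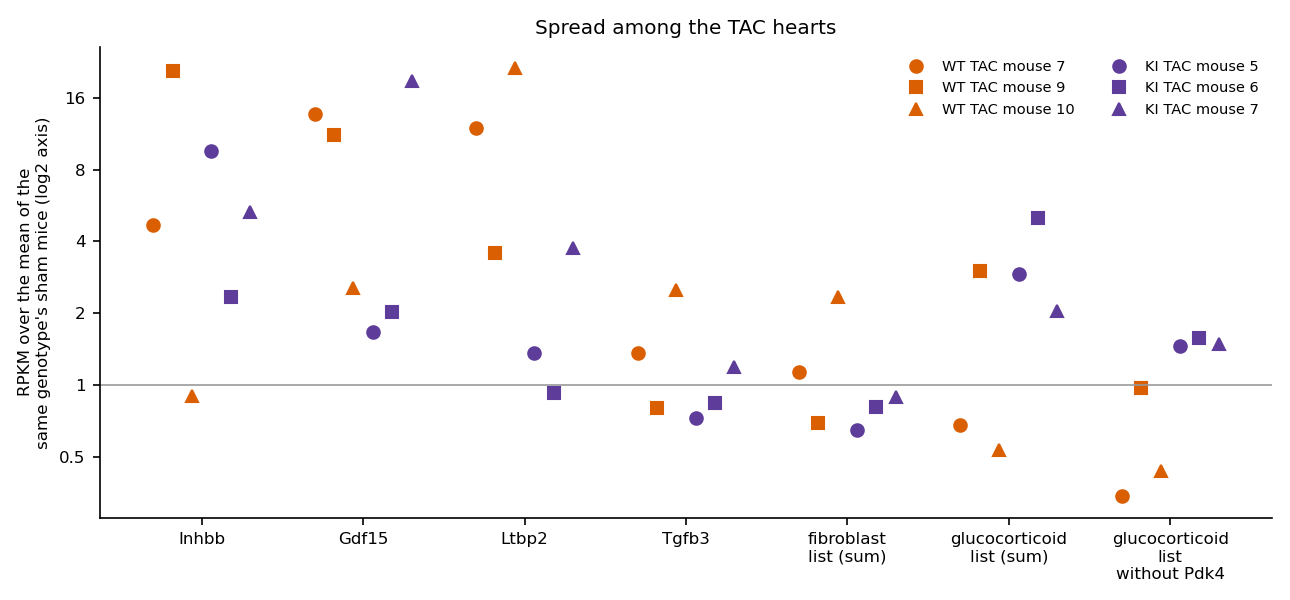
RPKM of 4 members and summed RPKM of 5 fibroblast and 6 glucocorticoid-responsive genes, the latter also without Pdk4, in the 6 TAC hearts, each divided by the mean of the sham mice of the same genotype (log2 axis; 1 mouse per point). WT TAC mouse 9 is highest for Inhbb (20.8 times) and lowest of its group for Ltbp2 (3.58 times), and mouse 10 is the reverse (0.902 and 21.3 times). The KI TAC mice spread from 2.05 to 5.01 times in the glucocorticoid sum and from 1.46 to 1.57 times without Pdk4.

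The genes most like Ltbp2 over the 12 hearts, by Pearson's r of log2(RPKM + 1), were Myof (0.979), Laptm5 (0.977) and Serpinb1a (0.965). Myof encodes a membrane repair protein, Laptm5 a lysosomal protein of blood cells and Serpinb1a an inhibitor of neutrophil proteases. Those most like Inhbb were Sema3f (0.952), Sh2d5 (0.949) and Fem1b (0.949). Macrophage markers (Csf1r, Cd68, Adgre1, Mrc1 and Cd14) summed to 28.8 to 36 RPKM in sham hearts, 52.9 to 74.5 RPKM in WT TAC and 36.6 to 47.6 RPKM in KI TAC hearts, and 3 of 5 rose in WT. In KI hearts 1 of the 5 rose and 1 fell, and 2 were lower in KI between the TAC groups. Of all genes, 6.96% rose in WT, 8.57% rose and 14.7% fell in KI, and 8.13% were lower in KI between the TAC groups. Neutrophil markers (S100a8, S100a9 and Csf3r of 5 listed) summed to 0.395 to 1.27 RPKM in sham, 3.69 to 9.87 RPKM in WT TAC and 4.18 to 20.3 RPKM in KI TAC hearts. These correlations describe points that share a group and a library, and carry no p.

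Other genes of the pathway were read from a list of 97, of which 75 had a row and 72 were tested. In WT hearts 18 of the 72 rose and 3 fell (all genes 6.96% and 4.6%), and in KI hearts 13 rose and 10 fell (8.57% and 14.7%). The median change of the list was 0.33 in WT and 0.03 in KI, beside 0.04 and −0.10 for all genes. Between the TAC groups 5 were higher and 12 lower in KI (2.92% and 8.13%), and the 12 became 7 after quantile normalization and 6 after median-ratio scaling. Leaving out mouse 7 of WT TAC or mouse 6 of KI TAC left 0 higher and 1 lower, so these counts were not kept. Such a fit also has fewer mice to detect a change, which cannot be told apart here from the values of the heart left out. None passed in the sham comparison or the interaction.

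**Figure D4:**
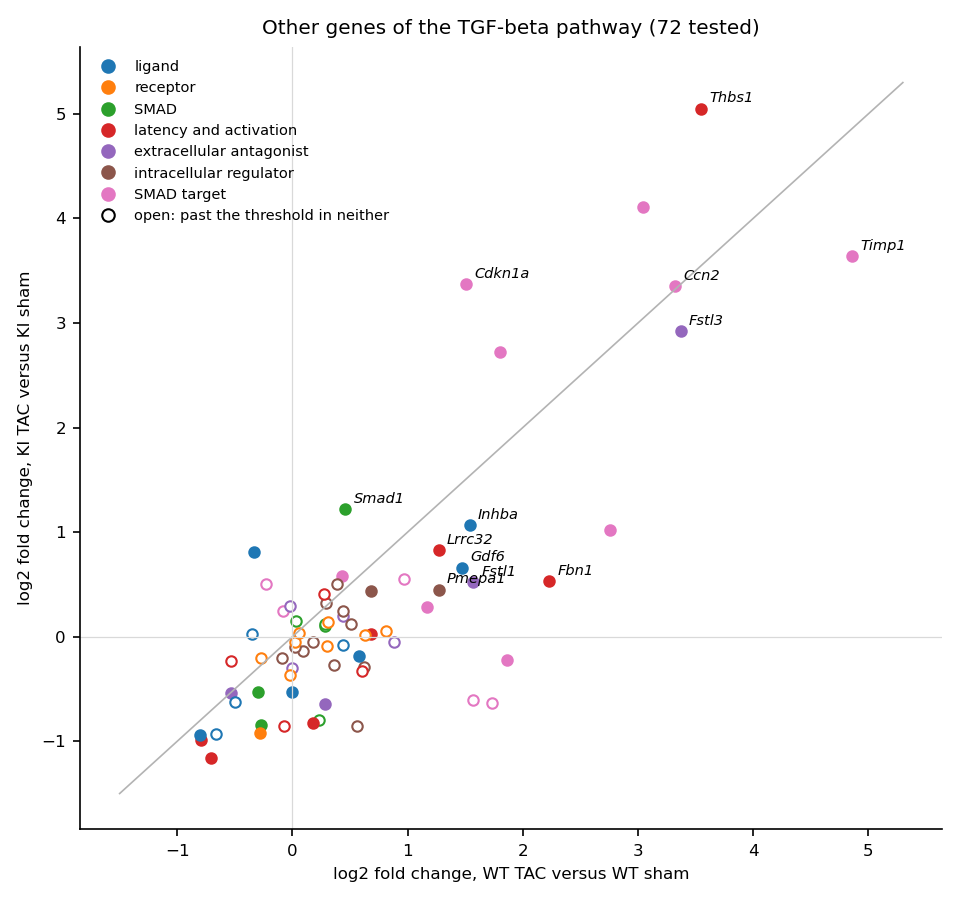
Difference of mean log2(RPKM + 1) on TAC in WT (horizontal axis) and in KI hearts (vertical axis) for the 72 other pathway genes, coloured by role; filled points passed the threshold in at least 1 genotype, the grey line marks equal change, and names are given to points of the naming rule that the text reports with a change over 1.2 on the log2 scale. Thbs1 (3.55 and 5.05), Timp1, Ccn2 and Fstl3 lie far up in both genotypes, and Fbn1 (2.23 and 0.53) lies to the right.

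Among the other ligands, 10 of 23 listed were tested. Inhba, the beta A subunit of activins, rose in both genotypes, from 0.0682 to 0.152 RPKM in WT sham to 1.39 to 2.8 RPKM in WT TAC (change 1.54, adjusted p = 0.00163) and from 0.116 to 0.371 to 0.894 to 3.02 RPKM in KI (1.07, adjusted p = 0.00647). The activin subunits Inhba and Inhbb thus differed in that WT TAC mouse 10 was above the sham mice for Inhba. Inhba was under 1 RPKM in every sham heart, so it entered the test only through the TAC hearts where it was high. Bmp7, a bone morphogenetic protein, fell in both, by 0.80 in WT (adjusted p = 0.0182) and 0.94 in KI (adjusted p = 0.00414). Gdf6 rose in WT (0.3 to 0.371 RPKM in sham, 0.908 to 5.22 RPKM in TAC mice, change 1.47, adjusted p = 0.00663), beside 0.66 in KI (adjusted p = 0.119). Like Inhba, Gdf6 was under 1 RPKM in every sham heart and entered the test only through TAC hearts. Bmp4 was 2.54 to 3.41 RPKM in WT TAC and 6.17 to 11 RPKM in KI TAC mice, higher in KI by 1.23 (adjusted p = 0.00979), and it rose in KI by 0.81 (adjusted p = 0.0272) with a WT change of −0.33 (adjusted p = 0.39).

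Of 9 other receptors tested, none passed the threshold in WT hearts. There the BMP receptor genes Bmpr2 (0.81, 95% interval 0.22 to 1.41, adjusted p = 0.0738) and Bmpr1a (0.63, 0.11 to 1.15, adjusted p = 0.108) had every TAC mouse above every sham mouse, as did 20% of all genes. The co-receptor gene Tgfbr3 had every TAC mouse below (−0.27, adjusted p = 0.338), as did 1690 of the 11240 genes. These 3 were named after their values were seen. In KI hearts 1 fell, the activin receptor Acvr2b (−0.92, adjusted p = 0.00501), from 1.92 to 3.28 RPKM to 0.82 to 1.19 RPKM. The shares over all genes were 6.96% higher and 4.6% lower in WT and 8.57% higher and 14.7% lower in KI hearts. None of 7 SMAD genes passed in WT. In KI hearts Smad1, an effector of BMP receptors, rose by 1.22 (adjusted p = 0.0017) from 2.82 to 3.87 RPKM to 6.42 to 13.6 RPKM, and the inhibitory Smad6 (−0.84, adjusted p = 0.0118) and the BMP effector Smad9 (−0.53, adjusted p = 0.0265) fell.

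Among 11 latency and activation genes, 4 rose and 1 fell in WT hearts, and 2 rose and 3 fell in KI hearts, beside the same shares over all genes (6.96% higher and 4.6% lower in WT, 8.57% and 14.7% in KI). Thbs1, which encodes thrombospondin 1, an activator of latent TGF-beta, was 1.17 to 1.61 RPKM in WT sham and 20.6 to 35.5 RPKM in WT TAC mice (change 3.55, adjusted p = 0.00028), and 0.955 to 3.77 and 46.7 to 188 RPKM in KI mice (5.05, adjusted p = 1.27e-05). Its level was higher in KI between the TAC groups by 1.73 (adjusted p = 0.0232), a call lost in 5 of 12 alternatives, with the interaction at 1.5 (adjusted p = 0.271). Lrrc32, which tethers latent TGF-beta to the cell surface, rose by 1.27 in WT (adjusted p = 0.00457) and 0.83 in KI (adjusted p = 0.0229). Fbn1, the microfibril protein on which latent complexes are stored, rose by 2.23 in WT (adjusted p = 0.0184), with 59.4 RPKM in mouse 10 against 32.3 and 22.5 RPKM in mice 7 and 9. Its KI change of 0.53 did not pass the threshold (adjusted p = 0.512), and the KI groups overlapped. Fbn1 lost its WT call without WT sham mouse 2 or 3 or WT TAC mouse 7 or 10. Ltbp1 fell in KI by 1.16 (adjusted p = 0.00599), beside −0.71 in WT (adjusted p = 0.0883).

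Of 8 extracellular antagonists, Fstl3, a follistatin-like protein that binds activins, rose in both genotypes, from 4.86 to 5.81 RPKM to 39.1 to 83.7 RPKM in WT (change 3.37, adjusted p = 5.7e-05) and from 5.61 to 5.96 RPKM to 29.5 to 68.6 RPKM in KI mice (2.92, adjusted p = 7.15e-05). Fstl1 rose in WT (1.57, adjusted p = 0.0127), with 58.6 RPKM in mouse 10 and 15.4 RPKM in mouse 9. Chrd, which binds BMPs, fell in both (−0.53 and −0.54, adjusted p = 0.0465 and 0.0261), and Twsg1 fell in KI (−0.64, adjusted p = 0.0488). The calls of Chrd and Twsg1 lay at the threshold and were lost in 6 to 8 of 12 alternatives. Of 13 intracellular regulators, the TGF-beta feedback gene Pmepa1 (1.27, adjusted p = 0.00989) and the SMAD co-repressor Tgif1 (0.68, adjusted p = 0.0049) rose in WT, and Tgif1 rose in KI (0.44, adjusted p = 0.026), where Pmepa1 had a change of 0.45 (adjusted p = 0.247). Tgif1 was under 1 RPKM in every sham heart and entered the test only through TAC hearts. The shares over all genes were 6.96% higher and 4.6% lower in WT and 8.57% higher and 14.7% lower in KI hearts.

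Of 14 SMAD target genes, 7 rose in WT and 6 in KI hearts, and none fell (all genes 6.96% and 8.57% higher). They were not all the same genes. Fn1 (1.86, adjusted p = 0.00283), Tgfbi (1.17, adjusted p = 0.00167) and Postn (2.76, adjusted p = 0.0181) passed the threshold in WT only. Their KI changes were −0.22, 0.28 and 1.02 (adjusted p = 0.658, 0.281 and 0.289). Id2 (0.58, adjusted p = 0.0271) and Cdkn1a passed it in KI only. Fn1, Tgfbi, Postn and Id2 were named after their values were seen. The metalloprotease inhibitor gene Timp1 and the matricellular Ccn2 rose in both genotypes. Timp1 was 0.333 to 0.666 RPKM in WT sham and 33.1 to 52.7 RPKM in WT TAC mice (change 4.86, adjusted p = 4.69e-08), and 0.555 to 1.47 and 17.9 to 26.9 RPKM in KI mice (3.64, adjusted p = 2.2e-06). Of the sham hearts, only KI sham mouse 1 reached 1 RPKM, so Timp1 entered the test through the TAC hearts where it was high. Ccn2 changed by 3.32 in WT (adjusted p = 0.000153) and 3.35 in KI hearts (adjusted p = 7.21e-05). Cdkn1a, a cell cycle inhibitor, rose in KI by 3.37 (adjusted p = 0.00104), beside 1.51 in WT (adjusted p = 0.0958), where mouse 9 had 67.4 RPKM and mice 7 and 10 had 17.6 and 7.56 RPKM. Between the TAC groups Timp1 was lower (−0.85, adjusted p = 0.0301) and Cdkn1a higher (2.0, adjusted p = 0.0372) in KI, and 3 of the 14 targets in all were lower and 2 higher (all genes 8.13% lower and 2.92% higher). Of the pathway genes named by the rule, 10 of 14 calls in WT and 11 of 18 in KI were kept under all 12 alternatives, against 0 of 8 between the TAC groups, all 8 of which were lost without WT TAC mouse 7 and without KI TAC mouse 6. Besides Fbn1 and Chrd, Bmp7 lost its WT call without WT sham mouse 1 or WT TAC mouse 7 or 9, and Pmepa1 without WT TAC mouse 7. KI calls were lost by Smad6 without KI sham mouse 2, by Lrrc32 without KI sham mouse 2 or 3 or KI TAC mouse 5, by Smad9 and Tgif1 without KI sham mouse 2 or 3 or KI TAC mouse 5 or 7, and by Bmp4 without KI sham mouse 1 or 3 or KI TAC mouse 5 or 6. Chrd, Twsg1, Tgif1 and Bmp4 lost them in the fit of the 2 groups alone too.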

How the data were processed

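Per the labels, RNA was sequenced from 12 hearts, and mice were grouped by the labels for genotype and treatment and named by their numbers. The authors selected poly(A) RNA, made strand-specific libraries, trimmed reads with Trimmomatic 0.39, mapped them to GRCm38 with HISAT2 2.2.1, took counts per Ensembl gene with HTSeq 0.6.1 and named edgeR 3.18.1 for their tests. The methods name 2 annotation releases. The deposited values are in RPKM: times GENCODE M21 exon length they sum to 997702 to 1002226 per mouse. Low values were whole multiples of 1 read (within 0.02 reads) for 97.356% to 98.001% of those checked, which gave the depth. The filter behind the 13552 genes is not given in the sources used here.

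Genes that reached 1 RPKM in 3 or more mice were fitted as log2(RPKM + 1) with limma 3.58.1 in R 4.3.3 (4 group means, eBayes with trend), with Benjamini-Hochberg adjustment over the 11240 genes and a threshold of 0.05. Intervals cover the spread between mice as the model estimates it. The model was tested on simulated data. Alternatives were a pseudocount of 0.1, no filter, quantile normalization, median-ratio scaling, limma-voom on recovered reads, the 2 groups alone, leaving out each mouse and a replicate block. The members and lists were chosen with earlier results of these data known, so they are no independent support. Other pathway genes named are, per role, at most 4 with the largest change on TAC in either genotype among those past the threshold. Those outside this rule are marked as named after their values were seen. Genes like Ltbp2 and Inhbb, the members with the largest change in WT and in KI, are the 3 with the highest r; Inhbb also has the highest mean. Atrial (2 of 5 found), endothelial, smooth muscle, erythroid and clock gene lists were read too; no gene of the skeletal muscle and adipocyte lists was analysed here. Plots were drawn with matplotlib 3.10.9. Protein sequences were not used here, and values of 1 gene that the rule names are not reported here.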

Additional observations from a re-analysis of the deposited data

How the results depend on the processing

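Of the 9 members in 5 comparisons, every rise or fall reported as past the threshold kept its direction under every alternative. Without 1 mouse, the count of members past the threshold was 2 to 4 in WT, 0 to 3 between the TAC groups and 0 to 1 in the interaction, and for all genes 596 to 1525 in WT, 1453 to 2741 in KI, 162 to 1822 between the TAC groups and 0 to 240 in the interaction. The wider list then had 0 to 2 lower in WT, and 0 to 6 higher and 1 to 16 lower between the TAC groups. With the 2 groups alone, 5 of that list were lower in WT, 1 was higher and 1 lower between the TAC groups, 0 members and 216 genes (against 1242) passed there, and 5 genes in the sham comparison. After quantile normalization 7 and after median-ratio scaling 6 of the list were lower between the TAC groups.

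Signs turned for small changes that had not passed the threshold. With quantile normalization Tgfb1 was 0.013 between the TAC groups. With median-ratio scaling Tgfb1 was 0.10 there and 0.037 in the interaction, Smad7 0.005 between the TAC groups and Tgfb3 0.014 in KI. Without 1 mouse, the range was −0.064 to 0.308 for Tgfb1, −0.109 to 0.155 for Tgfb2, −0.105 to 0.436 for Inhbb, −0.289 to 0.176 for Gdf15, −0.073 to 0.180 for Ltbp2, −0.126 to 0.046 for Tgfbr1, −0.256 to 0.040 for Tgfbr2 and −0.069 to 0.115 for Smad7 between the sham groups. In the interaction it was −0.391 to 0.031 for Tgfb1 and −1.013 to 1.172 for Inhbb. Between the TAC groups it was −0.209 to 0.106 for Tgfb1, −0.823 to 1.362 for Inhbb and −0.453 to 0.011 for Smad7, and in KI −0.282 to 0.003 for Tgfb3 and −0.019 to 0.445 for Smad7. The cause was not tested.

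Only the sham groups share 3 mouse numbers. Deviations of same-numbered mice correlated at −0.225, −0.302 and 0.44, and a replicate block gave 0 genes and 0 members in place of 2 and 0. With 3 mice a group, these values cannot decide whether the numbers pair the mice. Of 13 clock and glucocorticoid-responsive genes, mouse 1 was lowest in 7 and highest in 2 in both sham groups, as given below. Not every mouse correlated best with its own number. The 3 mice a group and low counts of Gdf15 (from 61 reads) limit what could be seen.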

Other observations

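Cell type lists that the account of the family did not use were summed in each heart. Smooth muscle markers (Myh11, Tagln, Cnn1, Mylk and Smtn) summed to 99.8 to 128 RPKM in sham and 47.3 to 87.4 RPKM in TAC hearts, with most of the sum from Smtn, and Cnn1, a contractile protein, was 0.478 to 0.912 RPKM in WT sham and 1.25 to 4.46 RPKM in WT TAC mice. In WT hearts 1 of these 5 rose and 1 fell (6.96% and 4.6% of all genes), and in KI hearts none rose and 1 fell (8.57% and 14.7%). Between the TAC groups 1 was lower in KI (8.13% of all genes), Cnn1 (−0.98, adjusted p = 0.0261). Cnn1 was under 1 RPKM in every sham heart, so it entered the test only through TAC hearts. Endothelial markers (Pecam1, Cdh5, Kdr, Tie1 and Egfl7) summed to 250 to 374 RPKM over all 12 hearts, and none of the 5 passed the threshold in any comparison. Atrial genes (Dkk3 and Stard10) summed to 13.7 to 31.1 RPKM in sham and 10.8 to 17.2 RPKM in TAC hearts, and neither passed. Erythroid genes summed to 134 to 244 RPKM in sham and 74.8 to 257 RPKM in TAC hearts, with none past the threshold.

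Heart muscle markers were among the calls: 1 of 5 fell in WT hearts, as did 4.6% of all genes. None passed the threshold in KI hearts (8.57% of all genes higher and 14.7% lower), and 1 was higher in KI between the TAC groups (2.92%). The 7 clock genes summed to 103 to 244 RPKM in sham and 53 to 142 RPKM in TAC hearts, and 2 of them fell in KI hearts, where 14.7% of all genes did. Of these 7 and the 6 glucocorticoid-responsive genes, 13 in all, mouse 1 was the lowest of its group in 7 genes and the highest in 2 in both sham groups. In 2 it went opposite ways: Dbp was 135, 70.6 and 51.3 RPKM in WT sham mice 1, 2 and 3 and 25.4, 105 and 81.9 RPKM in those of KI, and Pdk4 was lowest in WT (28.4 RPKM) and highest in KI (180 RPKM). In the other 2 it was highest in KI and between the others in WT. The count was made after the values were seen, and with 3 mice 1 of them is always lowest.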
